A study of Mus musculus with 4 samples.

Results

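The genes described here encode the 3 large families of conjugating enzymes of the liver, the glutathione S-transferases (Gst), UDP-glucuronosyltransferases (Ugt) and cytosolic sulfotransferases (Sult), together with the flavin-containing monooxygenases (Fmo). They were chosen by name: every autosomal gene of the array design whose symbol starts with Gst and a class letter, Ugt, Sult or Fmo, each followed by a number. The rule used no measured value and gave 49 of the 20445 autosomal genes, namely 19 Gst, 10 Ugt, 13 Sult and 7 Fmo genes, covered by 95 of 52385 autosomal probes.

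Array comparative genomic hybridisation was used: test and reference DNA are labelled with 2 dyes and bind together to one array of probes, so that a log2 ratio above 0 means more signal from the test DNA. The 4 samples are mouse liver cells of 1 group, with the genotype TAK1LPC-KO_RIP3-_-. The series' title describes them as TAK1 deficient in liver parenchymal cells with an added Rip3 knockout, so all 4 samples carry both changes. Their genomic DNA came from formalin-fixed, paraffin-embedded sections and was labelled with Cy5. The Cy3 channel of every array held one shared reference, a pool of DNA from 4 normal livers, and this pool is the only control. The promoter that drives the deletion, the age of the animals and the part of the liver that was cut were not given in the sources used here. The test of each ratio was against 0, so differences among normal livers do not enter it, and dyes were not swapped, so a probe that favours one dye keeps that bias. The labels do not state whether the 4 samples are separate animals. The p-values thus reflect how far these 4 samples scatter, and that scatter may be technical.

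Glutathione S-transferases join glutathione to electrophiles such as epoxides and products of lipid peroxidation. UDP-glucuronosyltransferases transfer glucuronic acid or another sugar to bilirubin, steroids and drugs, and sulfotransferases add sulfate to phenols, hormones and bile acids. Flavin-containing monooxygenases oxidise nitrogen and sulfur atoms of drugs and dietary compounds, a step that can precede conjugation. Hepatocytes are a main site of all 4 families. The array, however, is meant to measure DNA: a ratio is read as the amount of labelled DNA bound to a probe. It is not a measure of how much of an enzyme or its RNA was made, and what else may enter the ratio was not tested.

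The share of spots well above background ran from 84.3% to 89.9% for sample DNA and from 94.4% to 97.7% for the pool. The spread between neighbouring probes that the scanner software reports was 0.38 to 0.42 on the log2 scale, outside the software's own accepted range on all 4 arrays. Of the 95 probes for these genes, 83 were well above background in both channels on every array. Replicates 1 and 2 lay on one slide (slide 1) and replicates 3 and 4 on the other (slide 2).

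Probes are 46 to 60 bases long, and for 4 genes with high ratios the probes of the same gene differed by more than 1 log2 unit. Their sequences are shown because the size of the ratio of each of these genes depends on which probe is read. The first 30 bases of each are given as the array's files print them, with the position of the whole probe on mouse build mm9. For Gsta3 and Ugt3a2 the probes run as follows, in chromosomal order.
Gsta3 at chr1:21240421-21240480: aagacaaaaaccaaacgtgtcatttgagaa
Gsta3 at chr1:21243296-21243355: actgagtgttttgaaaacattccggtattc
Gsta3 at chr1:21254995-21255054: ttttgatgacgcaaaatgtgttgagtcagc
Gsta3 at chr1:21255074-21255133: aaagccaaccttctaaaattttgcatcaca
Ugt3a2 at chr15:9267096-9267155: gcctcttgcaggagtaaaactcacctttct
Ugt3a2 at chr15:9280900-9280959: cacctgaagatcaggaaaagaaatttgctg
The probes of Ugt3a1 and Fmo5 are listed in the same way.
Ugt3a1 at chr15:9213882-9213941: tggccacgatgtaatcaaacttctttatga
Ugt3a1 at chr15:9231347-9231406: aagtggttcaaattataagtgcagtagagt
Fmo5 at chr3:97439350-97439409: gatacgcttttaaatgctcattggctactt
Fmo5 at chr3:97439566-97439625: gagtatttcaggatgtatgccaaagaattt
Fmo5 at chr3:97449213-97449272: tgccttagaacattgctattagaaaccact
Fmo5 at chr3:97454566-97454621: aaattgccctcacaaagtgaaatgatggca
Members of these families can be near-identical in sequence. Probes were compared only with other probes, and no probe of one of the 49 genes aligned over 30 bases or more to a probe of another. Only 8 of the 95 probes aligned over that length to any other probe of the array, over at most 45 bases and at no more than 83.9% identity. The genes themselves were not searched, so whether a probe also binds another gene of its family was not tested. The position of probes within exons, introns or UTRs on mm9 was not used here.

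Of the 49 genes, 20 had a higher ratio than the pool, 5 had a lower one and 24 were not called. A gene was called when limma's Benjamini-Hochberg adjusted p over all 20445 genes was under 0.05 and its mean log2 ratio was at least 0.25 from 0. By the same rule 16.1% of all autosomal genes were higher and 19.3% were lower, against 40.8% and 10.2% of these 49. The 20 higher genes were above the pool on all 4 arrays and the 5 lower genes below it on all 4. This is no separate evidence, because the calls were made from the same 4 arrays. Both counts depend on single arrays. Without replicate 1, 13 genes were higher and 1 lower, and without replicate 2 the counts were 15 and 2. They were 15 and 5 without replicate 3, and 16 and 3 without replicate 4, while the share of all genes called was also smaller in these fits, at 12.1% to 13.1% higher and 14.6% to 16.1% lower. In total 12 of the 25 called genes kept their call whichever replicate was left out.

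The calls were spread unevenly over the 4 families. All 10 Ugt genes had a mean above 0 and 7 were called higher, as were 5 of the 7 Fmo genes, with no gene of either family called lower. Among the 19 Gst genes 4 were higher and 4 lower, and among the 13 Sult genes 4 were higher and 1 lower. Of all 20445 autosomal genes 9844 had a mean above 0, 16.1% were called higher and 19.3% lower. The Gst shares, 21.1% higher and 21.1% lower, were close to these. The median over the genes of a family, taken on each array, was 0.42 ± 0.06 (SD, n = 4) for Ugt, 0.29 ± 0.03 for Fmo, 0.11 ± 0.07 for Sult and 0.03 ± 0.03 for Gst. Over all autosomal genes it was -0.01 ± 0.01. With the background corrected by normexp, a model-based subtraction, the medians fell to 0.28 for Ugt, 0.16 for Fmo, 0.01 for Sult and -0.05 for Gst, so the Gst median changed sign. No test of a difference between families was made.

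**Figure D1:**
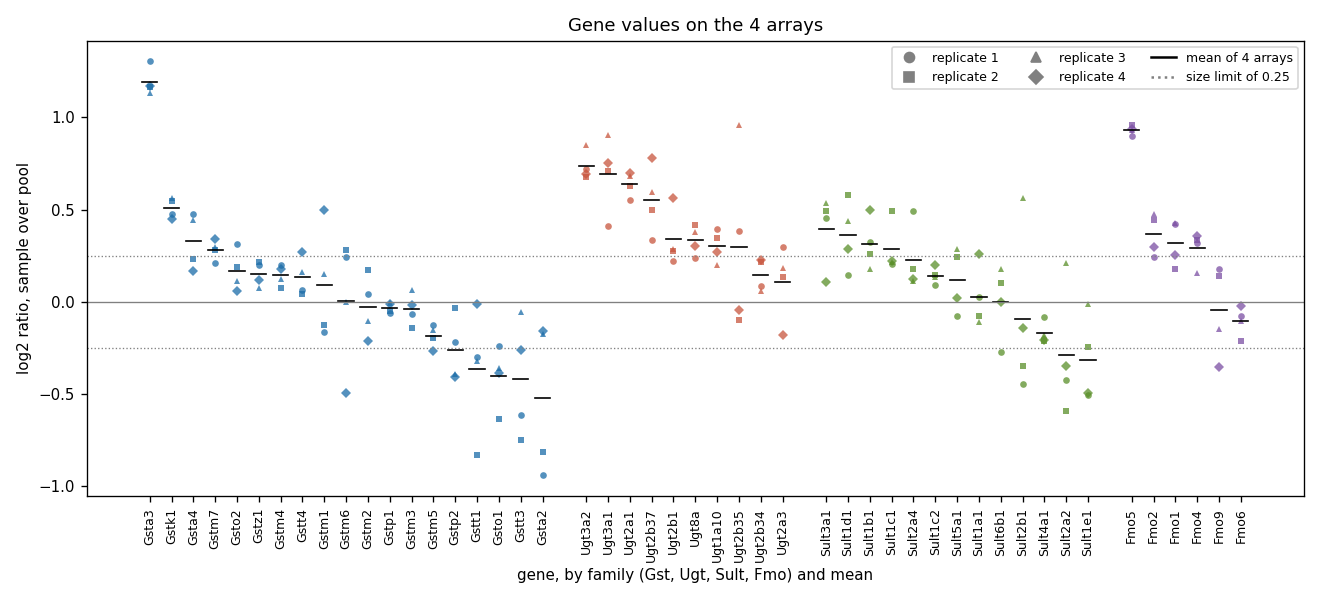
Log2 ratio of sample over pool (vertical axis) for 48 of the 49 genes (horizontal axis, grouped by family and ordered by mean). Symbols are the 4 arrays, short lines their mean and dotted lines the size limit of 0.25. Gsta3 at 1.19 and Fmo5 at 0.93 stand highest with the 4 arrays close together, whereas Gsta2 at -0.52 has 2 arrays far below the other 2.

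Gsta3 had the highest mean of all 49 genes. It encodes an alpha-class transferase of hepatocytes that conjugates aflatoxin epoxide in mouse liver. Its ratio was 1.30, 1.17, 1.13 and 1.17 in replicates 1 to 4, a mean of 1.19 ± 0.08 (SD, n = 4), or 2.29-fold over the pool (limma, adjusted p = 0.000382). The 4 arrays lay close together and far from 0. The other alpha-class genes fell on either side of the pool. Gsta4, whose enzyme clears the lipid peroxidation product 4-hydroxynonenal, had ratios of 0.48, 0.23, 0.44 and 0.17 (mean 0.33 ± 0.15, limma adjusted p = 0.0183). Its call was lost without replicate 1 or without replicate 3, in the deposited log2 table, and with normexp, where the mean was 0.14. Gsta2, an inducible alpha-class gene, lay at -0.94, -0.82, -0.18 and -0.16 (mean -0.52 ± 0.41, limma adjusted p = 0.0345). Replicates 1 and 2 were low and replicates 3 and 4 near the pool, and without either of the first pair the call was lost, with adjusted p up to 0.115. Gsta2 lies 0.147 Mb from Gsta4 at the outer probe ends, on chromosome 9, where the probes around both genes had a median of -0.07.

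Gstk1, the kappa-class gene, whose enzyme is found in mitochondria and peroxisomes, has 1 probe and had ratios of 0.48, 0.54, 0.56 and 0.45 (mean 0.51 ± 0.05, limma adjusted p = 0.00232). All 4 arrays were close together, but normexp gave a smaller mean of 0.28. Of the 7 mu-class genes, which lie within 0.143 Mb on chromosome 3, only Gstm7 was called, at 0.21, 0.28, 0.30 and 0.34 (mean 0.28 ± 0.05, limma adjusted p = 0.0137). The call was lost without replicate 4 and with normexp, where the mean was 0.12. The other 6 mu-class genes had means between -0.19 and 0.14, and the probes around the cluster a median of -0.08. The omega-class neighbours Gsto1 and Gsto2, which reduce dehydroascorbate and arsenic compounds, lay apart. Gsto1 was lower, at -0.24, -0.64, -0.36 and -0.39 (mean -0.40 ± 0.17, limma adjusted p = 0.0103), whereas Gsto2 was above the pool on all 4 arrays without passing the test (mean 0.17 ± 0.11, limma adjusted p = 0.0997).

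The remaining lower Gst genes belong to the theta and pi classes. Gstt3, of the theta class that acts on small halogenated compounds, had ratios of -0.61, -0.75, -0.06 and -0.26 (mean -0.42 ± 0.32, limma adjusted p = 0.0354). Gstp2, of the pi class, had -0.22, -0.03, -0.39 and -0.41 (mean -0.26 ± 0.18, limma adjusted p = 0.0459). Gstt3 lost its call without replicate 1, 2 or 4 and with normexp, where the mean was -0.22. Gstp2 lost its call without replicate 1, 3 or 4. Of the 11 Gst genes outside the 8 described above as the highest and lowest, means ran from -0.37 (Gstt1, limma adjusted p = 0.0630) to 0.15 (Gstz1, the zeta-class enzyme of tyrosine breakdown), and Gstp2 was the only one of them called. Gstt1 and Gstm6 each have 1 probe whose sample signal was not well above background on any array, so it gives only a bound. At the Gstt1 probe the pool was at least 1.01-fold brighter, and the Gstm6 probe allows no fold.

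Both Ugt3 genes, whose enzymes use sugars other than glucuronic acid, were higher. Ugt3a2 had ratios of 0.72, 0.68, 0.85 and 0.69, a mean of 0.73 ± 0.08 (limma adjusted p = 0.00112). Ugt3a1 had 0.41, 0.71, 0.91 and 0.75, a mean of 0.69 ± 0.21 (limma adjusted p = 0.00289). Every array was well above 0 for both genes. They are neighbours within 0.067 Mb on chromosome 15, and the probes around them had a median of -0.01. Normexp lowered Ugt3a2 to 0.48 and kept the call.

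The 6 Ugt2 genes lie together on chromosome 5 and 3 of them were called higher. Ugt2a1, an enzyme of the olfactory epithelium that glucuronidates odorants, had ratios of 0.55, 0.63, 0.68 and 0.70 (mean 0.64 ± 0.07, limma adjusted p = 0.00146). Ugt2b37, of the hepatic subfamily that glucuronidates steroids and drugs, had 0.33, 0.50, 0.59 and 0.78 (mean 0.55 ± 0.19, limma adjusted p = 0.00458). Ugt2b1 had 0.22, 0.28, 0.29 and 0.56 (mean 0.34 ± 0.15, limma adjusted p = 0.0166). Every value of the 3 genes was above 0, with replicate 4 the highest array for each gene. The other 3 were not called. Ugt2b35 scattered widely, at 0.39, -0.10, 0.96 and -0.05 (mean 0.30 ± 0.49), and 1 of its 2 probes was dim, that is, not well above background on any array for sample or pool. With that probe left out its mean was -0.07. Ugt2b34 had a mean of 0.15 ± 0.09 and Ugt2a3 of 0.11 ± 0.20. The Ugt2a3 mean turned to -0.25 (limma adjusted p = 0.0331), a call of lower, when only probes well above background in the pool channel were kept.

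Ugt8a and Ugt1a10 were also higher. Ugt8a, which makes the galactosylceramide of myelin, had ratios of 0.24, 0.42, 0.38 and 0.30 (mean 0.33 ± 0.08, limma adjusted p = 0.00916). Ugt1a10 had 0.39, 0.35, 0.20 and 0.27 (mean 0.30 ± 0.09, limma adjusted p = 0.0134) and lost its call with normexp, at 0.15, and without replicate 1 or replicate 2. The Ugt1 locus makes several enzymes by joining alternative first exons to shared later exons, so a probe that the design names Ugt1a10 may lie in sequence used by the other Ugt1a enzymes too.

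Of the 13 sulfotransferase genes, 4 were higher. Sult3a1, which sulfates amines, had ratios of 0.45, 0.49, 0.54 and 0.11 (mean 0.40 ± 0.20, limma adjusted p = 0.0147). Sult1d1, which acts on catecholamines, had 0.14, 0.58, 0.44 and 0.29 (mean 0.36 ± 0.19, limma adjusted p = 0.0185). Sult1b1, which acts on thyroid hormones, had 0.32, 0.26, 0.18 and 0.50 (mean 0.31 ± 0.14, limma adjusted p = 0.0180). Sult1c1 had 0.21, 0.49, 0.21 and 0.22 (mean 0.28 ± 0.14, limma adjusted p = 0.0262). None of the 4 kept its call in every fit that leaves out an array: Sult1c1 lost it in all 4, Sult3a1 without replicate 1, 2 or 3, Sult1b1 without replicate 1 or 4, and Sult1d1 without replicate 2 or 3. Normexp also ended the calls of Sult3a1, at 0.23, and Sult1c1, at 0.22. In these sulfotransferases the spread between arrays was large relative to the mean.

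Sult1e1, the estrogen sulfotransferase, was the only sulfotransferase called lower. Its ratios were -0.51, -0.25, -0.01 and -0.49 (mean -0.32 ± 0.23, limma adjusted p = 0.0439), with replicate 3 at the pool's level. The call was lost without replicate 1, 2 or 4 and with normexp, where the mean was -0.12. The 3 Sult2 genes, which sulfate hydroxysteroids and bile acids, were not called and lay on both sides of 0. Sult2a2 was at -0.42, -0.59, 0.21 and -0.35 (mean -0.29 ± 0.35) and was called lower with normexp, with the deposited log2 table and without replicate 3. Sult2a4 had a mean of 0.23 ± 0.18, and Sult4a1, a brain form with little known activity, of -0.17 ± 0.06. In the deposited log2 table Sult2a4 was called higher, at 0.33, and Sult4a1 lower, at -0.31. The 5 sulfotransferase genes not named here, none of them called, had means from -0.09 to 0.14.

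Fmo5 had the second highest mean of the 49 genes and the closest agreement of gene values among arrays, though not all its probes agreed so closely. The enzyme is abundant in liver and inserts oxygen next to carbonyl groups, unlike the other members of its family. Its ratio was 0.90, 0.96, 0.93 and 0.94, a mean of 0.93 ± 0.03 (limma adjusted p = 0.000543), or 1.91-fold over the pool. The mean was smaller when its 4 probes were summarised by their median, at 0.59, and in the deposited log2 table, at 0.50, and the call was kept in both. Fmo1, Fmo2 and Fmo4, all called higher, lie near Fmo6 on chromosome 1.

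Their means were close to each other. Fmo2, a lung form, was at 0.24, 0.44, 0.47 and 0.30 (mean 0.36 ± 0.11, limma adjusted p = 0.00876). Fmo1, which is broad in its substrates, was at 0.42, 0.18, 0.43 and 0.26 (mean 0.32 ± 0.12, limma adjusted p = 0.0150). Fmo4 was at 0.32, 0.34, 0.15 and 0.36 (mean 0.29 ± 0.09, limma adjusted p = 0.0160). Every value of the 3 genes was above 0. Fmo6 was below the pool on all 4 arrays without passing the test, at -0.08, -0.21, -0.11 and -0.03 (mean -0.11 ± 0.08). The probes around Fmo1, Fmo2 and Fmo4 had a ratio of -0.04 in each case. Fmo9, farther along chromosome 1, was at 0.18, 0.14, -0.15 and -0.35 (mean -0.05 ± 0.25). Normexp lowered Fmo1 to 0.12 and Fmo2 to 0.21 and ended their calls. Fmo1 also lost its call without replicate 1 or 3. Fmo4 lost its call without replicate 1, 2 or 4 and in the deposited log2 table, at 0.23.

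Read probe by probe, 35 of the 95 probes were higher, 8 were lower and 52 were not called, against 18.2% higher and 18.8% lower among all 52385 autosomal probes. Higher were 13 of the 22 Ugt probes, 10 of the 29 Gst probes, 6 of the 25 Sult probes and 6 of the 19 Fmo probes. The mean over arrays was at least 1 for 6 probes and -1 or below for none, and those 6 belong to Gsta3, Fmo5, Ugt3a1 and Ugt3a2. In each of these 4 genes the signal was uneven along the gene.

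Fmo5 had the widest spread between probes of the 49 genes. Its last probe, at chr3:97454566-97454621, was at 2.92, 2.88, 2.95 and 2.85 (mean 2.90 ± 0.05, limma adjusted p = 1.47e-05), and the probe at chr3:97439566-97439625 had a mean of 1.19 ± 0.23. The probe 216 bases before the latter, counted between starts, was at -0.06 ± 0.33, and the probe at chr3:97449213-97449272 was lower, at -0.30 ± 0.07 (limma adjusted p = 0.0249). Of the 4 probes, 2 were thus far above the pool and 2 at or below it. The first 2 probes shifted in opposite directions between arrays, which offset each other in the gene's mean. In replicates 1 to 4 the probe at chr3:97439350-97439409 was at -0.44, -0.22, 0.16 and 0.26. The probe at chr3:97439566-97439625 was at 1.37, 1.41, 0.99 and 1.00.

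All 4 Gsta3 probes were called higher, but by different amounts. The pair at chr1:21254995 and chr1:21255074, 79 bases apart, had means of 1.94 ± 0.29 and 1.61 ± 0.23. The probe at chr1:21240421 had a mean of 0.73 ± 0.06. The probe at chr1:21243296 had 0.50 ± 0.42 and was well above background on only 1 array in each channel. For Ugt3a1 and Ugt3a2 the split was alike: the probe at the lower coordinate had means of 0.05 ± 0.42 and 0.05 ± 0.11, and the one at the higher coordinate 1.34 ± 0.05 and 1.42 ± 0.14. Each Ugt3 gene's mean thus comes from 1 of its 2 probes.

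**Figure D2:**
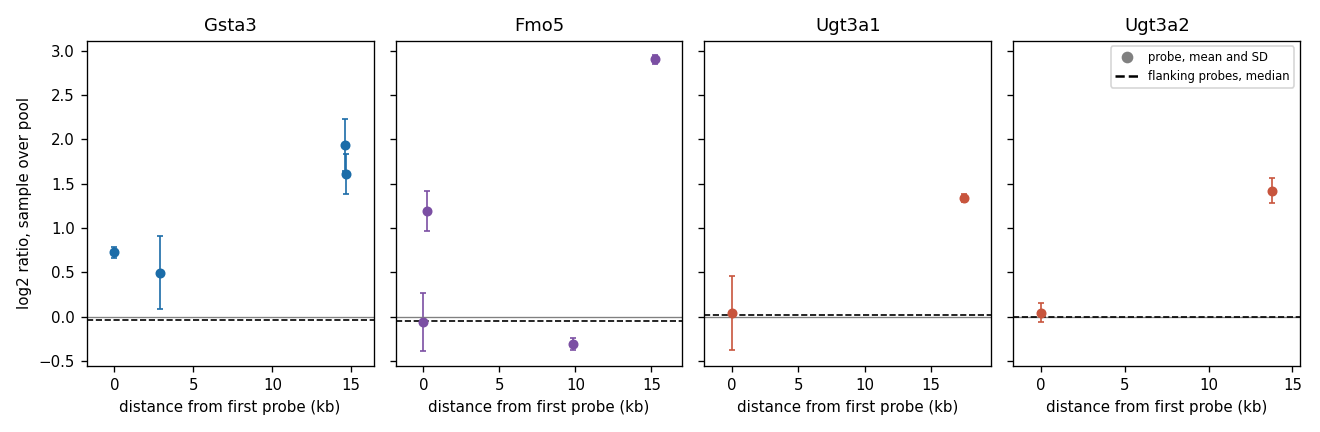
Log2 ratio of sample over pool (vertical axis) of each probe of Gsta3, Ugt3a1, Ugt3a2 and Fmo5 against its distance from the gene's first probe in kb (horizontal axis). Points are means of 4 arrays with bars of 1 SD, and the dashed line is the median of flanking probes. The last Fmo5 probe lies at 2.90 and the one before it at -0.30, whereas all 4 Gsta3 probes lie above 0.

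Smaller splits were seen in other genes. In each of Fmo1, Fmo2 and Fmo4 exactly 1 of 2 probes was called higher, with means from 0.44 to 0.67, and the other probes of these 3 genes lay between -0.01 and 0.14. The 3 probes of Ugt1a10 had means of -0.08, 0.44 and 0.55 along the chromosome, and the 3 of Ugt2b1 of 0.56, -0.22 and 0.67. Sult4a1, not called as a gene, held a probe at -0.58 ± 0.14 that was called lower, and 2 probes 89 bases apart at -0.19 and 0.26.

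Uneven probes were not limited to these families. Among the 31 of the 49 genes with at least 2 probes, the median range between a gene's probes was 0.50 and 4 genes (12.9%) had a range of at least 1. For the 11768 such genes of the array the median was 0.44 and the share 10.1%. Probes of opposite sign were found in 14 of the 31 genes (45.2%) and in 56.5% of all such genes. A further 18 of the 49 genes have 1 probe, so nothing can be said of their evenness.

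**Figure D3:**
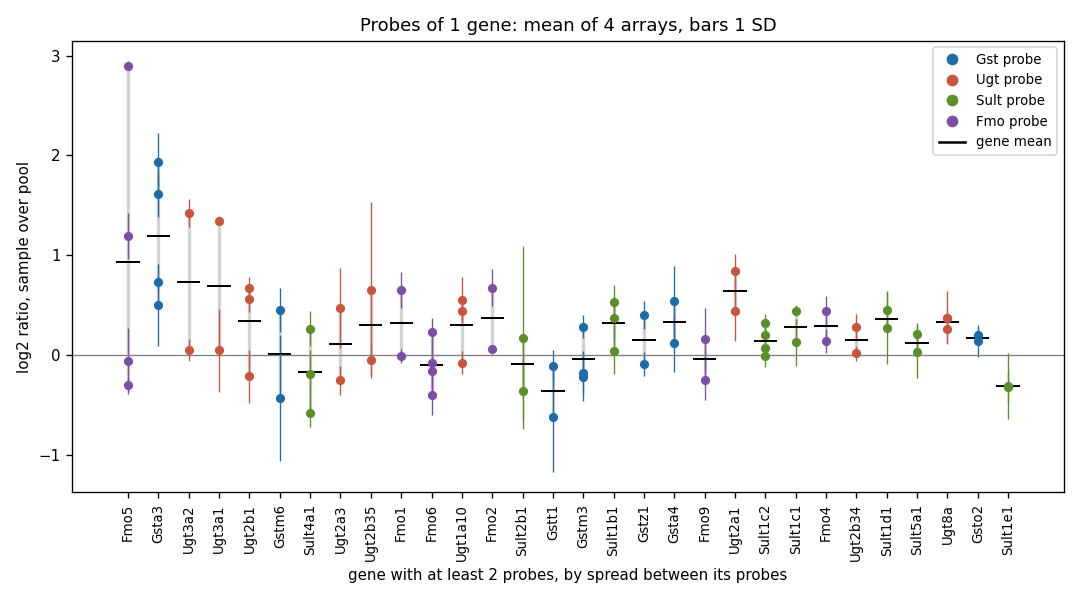
Log2 ratio of sample over pool (vertical axis) of each probe of 30 of the 31 genes with at least 2 probes (horizontal axis, ordered by the spread between probes). Points are means of 4 arrays, bars 1 SD, and short lines the gene's mean. The range is widest in Fmo5, at 3.20.

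Each gene was also set against the probes around it, to ask whether it followed its region. The median of probes of other genes and of unnamed probes within 500 kb on either side was subtracted on each array and the fit was repeated over 20213 genes. This left 17 of the 49 genes higher and 3 lower, beside 15.1% higher and 15.5% lower of all genes fitted. Of the 17, 16 were also higher without the subtraction, and the 3 lower genes, Gsto1, Gsta2 and Sult1e1, were lower in both. Gsta3 at 1.23, Fmo5 at 0.98, Ugt3a2 at 0.70 and Ugt3a1 at 0.65 changed little. Gstt4, at 0.30 (limma adjusted p = 0.0212), was called only after the subtraction, and Ugt1a10 rose from 0.30 to 0.52, its own flanks being at -0.22. Gstp2, at -0.06, and Gstt3, at -0.26 (limma adjusted p = 0.117), lost their calls, and their flanking probes had means over arrays of -0.20 and -0.17.

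The 4 higher genes that lost their calls, Ugt2b37, Ugt2b1, Sult1b1 and Sult1d1, all lie in 1 cluster. It spans chr5:87319481-88016653 and holds 6 Ugt2 and 3 Sult1 genes. Of these, 5 were higher and 1, Sult1e1, was lower, beside 16.1% higher and 19.3% lower of all autosomal genes. The cluster's 19 probes for these families had a median of 0.37, and the 40 other probes within and around it 0.18. Chromosome 5 as a whole had a median near 0 (0.002). After the subtraction Ugt2b37 was at 0.25 (limma adjusted p = 0.0612), Sult1b1 at 0.17, Sult1d1 at 0.16 and Ugt2b1 at 0.14. Ugt2a1 kept its call at 0.43 (limma adjusted p = 0.00591) and Sult1e1 moved from -0.32 to -0.54. For genes in a cluster the subtracted median includes probes of their neighbours in the same family.

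**Figure D4:**
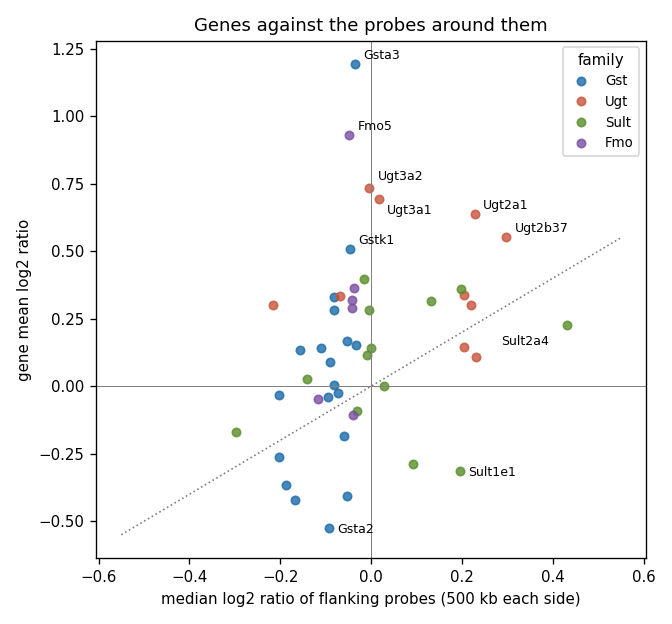
Mean log2 ratio of 48 of the 49 genes (vertical axis) against the median log2 ratio of flanking probes within 500 kb on either side, none of them from these families (horizontal axis). Points are coloured by family and the dotted line marks equal values. Gsta3, Fmo5, Ugt3a1 and Ugt3a2 lie far above the line with flanks near 0, and Ugt2 genes have flanks between 0.20 and 0.30.

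The 2 slides were compared in the same way. Limma called 0 of 20445 genes different between slides at an adjusted p under 0.05 (0.0%), and 2207 genes had an unadjusted p under 0.05. Of the 49 genes, 0 passed the adjusted threshold and 5 had an unadjusted p under 0.05, a share close to that among all 20445 genes. These 5 were Gsta2, Gstt3, Gstm1, Gstm6 and Fmo9. Gsta2 was 0.71 higher and Gstt3 0.52 higher on slide 2 than on slide 1, so both lower calls rest mainly on slide 1. For 36 of the 49 genes the slides differed by under 0.25. Slide and sample cannot be told apart here. With the mean of each slide as 1 sample, 12 genes were higher and 1 was lower, and of all genes 10.8% were higher and 14.3% lower.

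The genes were also split by whether they are known as abundant in adult mouse liver. The list of liver-abundant genes of these families holds 41 names, 28 of them among the 49 genes, of which 12 were higher and 3 lower, with a median gene mean of 0.15. Of the other 21 genes, 8 were higher and 2 lower, with a median of 0.14. The median over all autosomal genes was -0.01, with 16.1% of them higher and 19.3% lower.

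Genes that act beside these families were counted by the same rule, which called 16.1% of all autosomal genes higher and 19.3% lower. Of 18 other conjugating and microsomal enzymes, 6 were higher and 1 lower, with a median of 0.15. Mgst1, the microsomal glutathione transferase, stood at 1.53, 1.38, 1.61 and 1.78 (mean 1.58 ± 0.17). Nat1, an arylamine acetyltransferase with 1 probe, was at 1.04, 0.58, 0.18 and 0.23 (mean 0.51 ± 0.40). Of 16 genes that supply or recycle the cofactors, 13 were measured, 2 were higher and 3 lower, with a median of 0.07. These shares, 15.4% and 23.1%, were close to those of all genes. Oplah, which opens the ring of 5-oxoproline in glutathione turnover, was lower on all arrays (mean -0.86 ± 0.11), and Ugp2, which makes UDP-glucose, was higher (mean 0.36 ± 0.18).

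Of 12 transcription factors and sensors that regulate these families, 1 was higher and 1 lower, with a median of -0.01. That is 8.33% each, beside 16.1% higher and 19.3% lower among all autosomal genes. The lower one was Rxra, the partner of many nuclear receptors (mean -0.40 ± 0.08). Of 4 genes that cleave conjugates 3 were measured: Gusb, the beta-glucuronidase, was higher (mean 0.27 ± 0.13), and Arsa, a sulfatase, lower (mean -0.30 ± 0.15). Their median was -0.08.

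The labelled tissue was set beside marker genes, although the assay is meant to measure DNA and not expression. Of 10 hepatocyte markers 9 were measured, 6 were higher and 0 lower by limma, with means from 0.02 to 2.39 and a median of 0.83. The highest were Pck1, the gluconeogenic enzyme (mean 2.39 ± 0.43), and Cyp2e1, a cytochrome of alcohol metabolism (mean 2.38 ± 0.09). Of 22 markers of bile duct, stellate, endothelial, blood and immune cells 17 were measured, 1 was higher and 3 lower, with means from -0.53 to 0.42 and a median of -0.03. Sox9, a bile duct factor, was the higher one (mean 0.42 ± 0.28), and Col1a1, a collagen of stellate cells, was the lowest (mean -0.53 ± 0.10). The other bile duct markers lay below 0: Krt7, called lower, at -0.37 ± 0.11, Epcam at -0.13 and Krt19 at -0.03. The other stellate markers, Des at 0.16, Lrat at -0.002 and Pdgfrb at -0.03, were not called. Among all autosomal genes 16.1% were higher and 19.3% lower. The part of these marker values in the ratios of the 49 genes was not tested.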

How the data were processed

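The deposited intensity values were made with Agilent Feature Extraction 10.10.1.1 and are background-subtracted and dye-normalised for Cy5 and Cy3, per the file headers. The deposited log10 ratio served as a check and equalled the ratio used here within 0.001 on 234165 spots. A deposited log2 table of the same arrays, with column medians of -0.03, 0.03, 0.05 and 0.01, served as an alternative; comparison with each array's own scanner ratios (slopes 1.00 to 1.09) gave its scale and direction, and its normalisation stays unknown.

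Here the log2 of processed Cy5 over Cy3 intensity was taken, control spots (3924 of 62976) and outlier spots were left out, replicate spots were averaged per probe, and the median of the autosomal probes was set to 0 on every array. A gene is the mean of its probes. Genes were tested against 0 with limma 3.58.1 (lmFit, eBayes) in R 4.3.3, with Benjamini-Hochberg adjustment over all 20445 genes, and probes over all 52385. On simulated data with 20445 genes, the test of genes against the pool recovered 6% of changes of 0.35 and 38% of 0.5. It recovered 72% of changes of 1 and 96% of 2, with 2 false calls. These shares are for the simulated data only. The Benjamini-Hochberg cutoff depends on how many genes change, and the share of changes recovered on the 4 arrays was not tested. All 49 names are symbols in the RefSeq table; RefSeq otherwise gave only strands and promoter windows for the closing section.

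Genes given values are, by family, the 5 highest and 3 lowest means, every gene of a family with under 10 measured genes, and up to 2 called genes of each list with the largest absolute mean. Called genes outside this rule (Gstp2, Ugt8a, Ugt1a10), Gstt1, Gstz1, Gstt4, Gstm1 and Gstm6 were named after their values were seen. The values of 1 gene of the families and 1 regulator that the rule would name are not reported here, though counts include them. The genes, lists and rules were chosen with earlier results of these data known. Alternatives covered background correction, dim probes, outlier spots, centring, flanking probes, probe summary, GC content, slide, size limit and leaving out each array.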

Additional observations from a re-analysis of the deposited data

Results flagged for a closer look

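Sult1c1 stood apart in replicate 2, where its log2 ratio was 0.49, while the other arrays gave 0.21, 0.21 and 0.22. The gap to the nearest array was 0.946 of the whole range, above Dixon's 95% critical value for 4 samples. Of its 2 probes the one at chr17:54108930 was at 0.48 in replicate 2 and between -0.02 and 0.03 in the others. It was the only one of 53 gene, family and list values looked at that was set apart in this way, and chance sets apart about 1 in 20.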

How the results depend on the processing

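Of the 25 called genes, 8 kept direction and call in the 14 settings run for single genes (Gsta3, Gstk1, Gsto1, Ugt3a1, Ugt3a2, Ugt2a1, Ugt8a and Fmo5), 17 lost the call in at least 1, and 0 changed sign. The GC correction, the filter on probe number and the size limit of 0.5, which Gsto1 and Ugt8a do not reach, were run for the counts only. The count of higher genes, 20, was 12 with normexp (12.2% of all genes), 12 with slide means as samples (10.8%), 7 at a size limit of 0.5 (4.63%), and 13 to 16 when an array was left out. The count of lower genes, 5, was 3 after subtracting flanking probes (15.5% of all genes), 8 in the deposited log2 table (21.1%), 1 with slide means (14.3%), 2 among genes with at least 2 probes (16.9%), 1 at the size limit of 0.5 (7.02%), and 1 to 5 when an array was left out. Slide as a random block (correlation 0.04) and centring on the mode kept 20 and 5, and a GC correction gave 21 and 4.

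The Fmo median, 0.29, was 0.16 with normexp and 0.26 with centring on the mode, after subtracting flanks and with the median over probes. The Gst median, 0.03, was -0.049 with normexp and 0.17 after subtracting flanks, and the Sult median, 0.11, was 0.014 with normexp. The Ugt median, 0.42, was 0.28 with normexp, 0.52 with probes well above background in both channels, 0.34 after subtracting flanks and 0.47 with the median over probes.

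Changes of sign were followed only in the 34 genes that were named by the rule or called. Of these, 6 changed sign in at least 1 setting, and all 6 were uncalled. After subtracting flanks Fmo9 was 0.072, Sult2a4 -0.0013, Sult4a1 0.13, Ugt2b34 -0.086 and Ugt2a3 -0.13. Fmo9 ranged from -0.12 to 0.057 (without replicate 4) when an array was left out, and Ugt2b34 was -0.011 with normexp. Ugt2b35 was -0.068 with probes well above background in both channels and -0.045 with those above it in the pool channel, where Ugt2a3 was -0.25. The cause was not tested.

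No paired analysis was possible because there is only 1 group. The number of arrays limits the precision, and an uncalled gene is not shown to be level with the pool. How far normal livers differ from each other was not measured.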

Other observations

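The strand of 26 of the 49 genes with at least 2 probes was taken from RefSeq, and their probes were ordered along the gene. The most downstream probe was the highest in 11 of the 26 (42.3%) and the most upstream in 10 (38.5%), against 42.8% and 39.9% of 7735 genes of the array. No probe of the 49 genes occurred in any of 32851 RefSeq promoter windows, which says only that these letters are not in those windows.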
